A study of Mus musculus with 20 samples.

Results

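Genes that respond to peroxisome proliferator-activated receptors (PPARs) or carry out fatty acid oxidation were followed in small intestinal crypts as a list of 40 genes, taken by their symbols. The list was drawn up with earlier results of these data known. All 40 were among the 23020 genes of the deposited values, and 37 of them had a mean level of at least 3.32 (log2 of 10), the minimum for testing that 9521 genes of the series reached. Acot1, Acot2 and Cyp4a10 lay below that minimum. The crypts came from 20 C57BL/6 mice, and polyadenylated RNA was sequenced from its 3' ends with unique molecular identifiers. Xiap-/- mice lacked the gene of an inhibitor of cell death. The co-housed groups, kept together for 4 weeks, held 5 Xiap-/- and 5 wild-type mice. The mice housed apart, each genotype with its own kind, were 4 Xiap-/- and 6 wild-type animals. The age and sex of the mice, their cages and the deleted part of Xiap are not given in the sources used here. Levels are the authors' normalized values on a log2 scale, and a difference of 1 is a doubling on that scale.

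PPARs are nuclear receptors that fatty acids switch on, and with their partner RXR they bind DNA beside genes of lipid handling. In the absorptive cells of the small intestine PPARα is known for raising the genes of fatty acid uptake, transport and oxidation after a fatty meal or during fasting. Fatty acids enter the cell, are coupled to coenzyme A, cross into mitochondria as carnitine esters and are shortened stepwise by beta-oxidation, which hands its electrons to the respiratory chain. Very long chains are shortened first in peroxisomes, and auxiliary enzymes move or remove double bonds that would block the cycle.

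The DNA element of a PPAR-RXR pair is a repeat of the hexamer AGGTCA with a single base of any kind between the copies. It was searched on both strands of promoter windows from RefSeq (GRCm38.p6), each from 250 bases before to 50 bases after a transcript start. Windows were found for 35 of the 40 genes and not for Vnn1, Cyp4a10, Decr1, Acaa2 and Angptl4. With at most 2 mismatches the element lay in 5 of these 35 genes (14.3%), against 1190 of 27025 genes with a window (4.4%). With at most 1 mismatch it lay in 0 of the 35, against 0.644% of all. The hexamer alone, which is part of the longer element, was found without mismatch in 8 of the 35 (22.9%), against 18.1% of all. The windows of the 5 genes with an entry that passed a test described further on are shown first, with the match to the element in capitals. Cd36 holds a match, on the minus strand of its window, while Eci1, Acaa1b, Ehhadh and Acot1 hold neither the element nor the hexamer. The Cd36 window, chr5:17835847-17836146 on the minus strand, starts from a RefSeq start inside the span that GENCODE gives the gene. The window of Eci1 is chr17:24426433-24426732 on the plus strand, that of Acaa1b chr9:119157044-119157343 on the minus strand, that of Ehhadh chr16:21787785-21788084 on the minus strand and that of Acot1 chr12:84009252-84009551 on the plus strand.
Cd36: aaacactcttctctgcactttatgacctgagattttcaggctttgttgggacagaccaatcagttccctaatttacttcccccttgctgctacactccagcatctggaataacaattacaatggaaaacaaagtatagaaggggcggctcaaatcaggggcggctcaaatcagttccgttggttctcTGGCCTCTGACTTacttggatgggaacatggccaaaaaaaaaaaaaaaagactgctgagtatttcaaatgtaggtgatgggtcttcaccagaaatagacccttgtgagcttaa
Eci1: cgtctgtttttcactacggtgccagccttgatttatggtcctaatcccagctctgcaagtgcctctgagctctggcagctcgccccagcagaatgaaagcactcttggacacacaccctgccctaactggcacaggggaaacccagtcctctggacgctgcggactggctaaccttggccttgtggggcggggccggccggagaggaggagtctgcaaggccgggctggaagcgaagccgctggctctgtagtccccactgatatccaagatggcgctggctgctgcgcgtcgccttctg
Acaa1b: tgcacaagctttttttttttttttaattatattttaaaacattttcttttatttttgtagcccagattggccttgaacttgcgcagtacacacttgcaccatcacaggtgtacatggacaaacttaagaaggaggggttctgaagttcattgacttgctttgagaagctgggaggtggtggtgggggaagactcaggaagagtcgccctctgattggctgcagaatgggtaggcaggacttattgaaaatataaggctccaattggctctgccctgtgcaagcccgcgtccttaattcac
Ehhadh: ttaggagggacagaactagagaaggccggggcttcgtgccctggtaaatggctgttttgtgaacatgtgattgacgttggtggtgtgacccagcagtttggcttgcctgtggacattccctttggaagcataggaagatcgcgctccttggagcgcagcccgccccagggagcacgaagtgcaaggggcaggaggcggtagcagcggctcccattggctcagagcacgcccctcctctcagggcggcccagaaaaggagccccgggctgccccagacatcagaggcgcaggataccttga
Acot1: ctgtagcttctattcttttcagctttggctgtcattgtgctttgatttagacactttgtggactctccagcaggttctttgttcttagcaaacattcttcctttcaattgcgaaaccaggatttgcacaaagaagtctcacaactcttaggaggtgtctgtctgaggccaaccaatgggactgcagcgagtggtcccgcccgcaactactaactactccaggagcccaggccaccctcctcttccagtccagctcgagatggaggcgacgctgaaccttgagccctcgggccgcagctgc
The other 4 matches with 2 mismatches are given alone, as they stand on the gene's strand, with all bases in capitals because all belong to the element. Those of Creb3l3 (window chr10:81092542-81092841, minus strand), Etfa (chr9:55512194-55512493, minus strand) and Plin2 (chr4:86670010-86670309, minus strand) begin at positions -209, -77 and -225 from the start, and that of Slc25a20 (chr9:108661886-108662185, plus strand) at position 6.
Creb3l3: AGGGGAGAGGTCA
Etfa: TTACCTTTGCCCT
Plin2: GGACCCCTGACCT
Slc25a20: AGGTGAAAGGTCG

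The libraries and the make-up of the samples bear on every comparison below. The deposited values hold no counts, so depth is unknown. As a proxy, the share of rare genes (mean below -3) that stood more than 0.015 above their own median over libraries was 4.69 to 12.4% in co-housed Xiap-/- mice, 7.50 to 11.1% in co-housed wild-type mice, 9.55 to 32.1% in Xiap-/- mice housed apart and 4.58 to 14.9% in wild-type mice housed apart. Xiap itself had a level of 6.38 ± 0.10 (SD, n = 4) in Xiap-/- and 6.81 ± 0.17 (n = 6) in wild-type mice housed apart, without overlap (exact permutation p = 0.00476, two-sided, the smallest that 210 splits allow). In co-housed mice the levels were 6.62 ± 0.22 in Xiap-/- and 6.67 ± 0.20 in wild-type mice (n = 5 each, exact permutation p = 0.683). Where the deletion lies is not known here, and a 3' tag that falls beyond it would still be read, so Xiap does not check the genotype of a mouse. All 20 absorptive enterocyte markers were measured above the minimum (highest Apoa1, 13.48), and their summed level was 14.85 to 15.14 in co-housed Xiap-/-, 14.91 to 15.15 in co-housed wild-type, 15.07 to 15.55 in Xiap-/- mice housed apart and 14.86 to 15.70 in wild-type mice housed apart. In the same order of groups, median summed levels were 8.74, 8.73, 8.72 and 8.57 for stem cell markers. Dividing cell markers had 10.09, 10.21, 10.04 and 10.05, and Paneth markers 15.61, 15.52, 15.59 and 15.59. Goblet markers had 14.21, 13.96, 14.18 and 14.26, and T cell markers 10.44, 10.17, 10.54 and 10.52. B and plasma cell markers had 6.42, 6.19, 5.99 and 6.86. Although the extraction text speaks of liver, the hepatocyte gene Alb lay at -2.70. Of 10 hepatocyte markers, 7 were among the deposited genes and 1 (Ttr, 4.11) reached the minimum. Adipocytes, another site of PPAR activity, had 7 of 10 markers among the deposited genes. Of these, 3 lay above the minimum (Lipe, Cidec and Acvr1c), with Fabp4 at -3.37 and Retn at -2.39. Of 10 endothelial markers, 6 were among the deposited genes and none reached it, although Cd36 is also an endothelial gene. Kdr lay at -2.88.

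The mean level of the 37 genes was 7.20 ± 0.07 (SD, n = 5) in co-housed Xiap-/- mice, 7.10 ± 0.07 (n = 5) in co-housed wild-type mice, 7.41 ± 0.12 (n = 4) in Xiap-/- mice housed apart and 7.20 ± 0.16 (n = 6) in wild-type mice housed apart. The libraries of the housed-apart groups overlapped, from 7.28 to 7.57 in Xiap-/- and from 7.02 to 7.45 in wild-type mice. In some libraries most of the genes lay to the same side of their group mean. Above it were 33 of 37 in wild-type mouse 5 and also 33 in Xiap-/- mouse 3 housed apart, and 5 in wild-type mouse 4 housed apart. Other libraries were mixed, with 17 in co-housed Xiap-/- mouse 1 and 20 in co-housed wild-type mouse 5. The same count was not made over all tested genes. Wild-type mouse 5 had both the highest mean level (7.45) and the highest depth proxy (14.9%) of its group. Xiap-/- mouse 3 housed apart had the highest level (7.57) with the lowest proxy of its group (9.55%). Xiap-/- mouse 2 housed apart had the highest proxy (32.1%) with a level of 7.38. Wild-type mouse 6 housed apart had the lowest proxy of its group (4.58%) with a level of 7.32. By group, Xiap-/- mice housed apart had both the highest mean level (7.41) and the highest median proxy (13.3%). A link between the measures was not tested. Fewer cells of a type and less RNA per cell cannot be told apart in bulk samples.

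**Figure D1:**
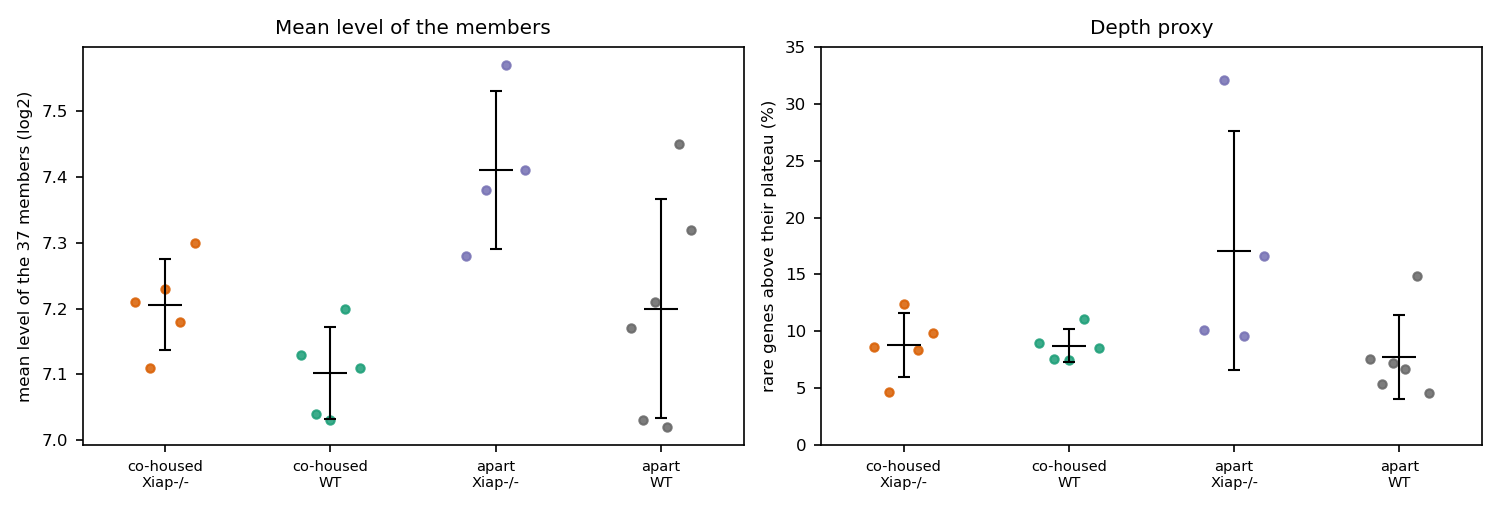
Mean level of the 37 tested genes in each library (left, log2) and the depth proxy, the share of rare genes that rise off the floor (right, %), with a point per mouse and bars for the mean and SD of each group. The highest points of both panels, 7.57 in mean level and 32.1% in the proxy, are different Xiap-/- mice housed apart.

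Between the genotypes housed apart, Eci1 was higher in Xiap-/- crypts. It is an isomerase that lets double bonds of unsaturated fatty acids enter beta-oxidation. Its level differed by 0.54 ± 0.12 (SE, Xiap-/- minus wild type), and it was the sole member of the 37 to pass (limma, adjusted p = 0.0281 over 9521 genes). Over all genes 0.452% passed in either direction and 0.294% as higher in Xiap-/- mice. Most members leaned the same way without passing: 32 of 37 differences were above 0, against 49.1% of all tested genes, with a median of 0.20, against -0.003 over all. At an unadjusted p under 0.05, 17 members were higher and 1, Slc27a4, lower, against 7.82% and 7.99% of all genes. None of the 37 tested members had groups without overlap (0.819% of all tested genes did so as higher and 1.05% as lower). Acot1 and Cyp4a10, below the minimum mean and outside these shares, did not overlap and are described further on. The share without overlap over all 23020 genes was not computed. Leaving out wild-type mouse 5 housed apart raised the number of members that passed to 15, of which 14 were higher, while 7.32% of all genes passed. Leaving out Xiap-/- mouse 2, 3 or 4 or wild-type mouse 1, 2 or 4 housed apart lowered it to 0, and leaving out Xiap-/- mouse 1 gave 2. Over the fits with a library left out, 9 to 697 of the 9521 tested genes passed (43 in the reported fit). Eci1 passed in 14 of the 20 fits with a library left out, with adjusted p-values up to 0.118 in the other 6. With the depth proxy as a covariate its difference was 0.42 (limma adjusted p = 0.796). Over all alternatives tried the adjusted p of Eci1 ranged from 0.00046 to 0.796. Beside these values, 14 of the 20 absorptive enterocyte markers were above 0, with a median of 0.07 and none passing. Ttr, the sole tested gene of the hepatocyte list, passed as higher in Xiap-/- mice, while Alb of that list lay at -2.70 over all libraries. Enteroendocrine markers were above 0 for 8 of 9 genes (median 0.14, 2 passing) and tuft cell markers for 7 of 7 (median 0.17, 3 higher at an unadjusted p under 0.05, none passing). The summed level of B and plasma cell markers had a lower median in Xiap-/- than in wild-type mice housed apart, 5.99 against 6.86, with overlapping ranges. The part of cell make-up or depth in the differences was not tested.

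Among co-housed mice the same comparison gave no member that passed in limma, and 0.0315% of all genes did, 0.021% as higher. At an unadjusted p under 0.05, 6 members were higher and 1, Ppargc1a, lower, against 5.43% and 6.59% of all genes. The differences of 29 of 37 members were above 0 (51.1% of all genes), with a median of 0.08. Angptl4, a secreted inhibitor of lipoprotein lipase and a classical PPAR target, had the largest difference, 1.06 ± 0.23, and no co-housed Xiap-/- mouse reached down to a co-housed wild-type mouse, as for 1.33% of all genes (1.75% in the other direction). It did not pass over all genes (limma adjusted p = 0.097). It passed when the co-housed groups were fitted alone (adjusted p = 0.00177) and with library weights (0.0203), and its adjusted p ranged from 0.00177 to 0.331 over the alternatives.

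Averaged over both housings, Xiap-/- crypts had more transcript of 4 members: Angptl4 by 0.95 ± 0.16 (SE, limma adjusted p = 0.0129), Eci1 by 0.39 ± 0.08 (0.0194), Acaa1b by 0.39 ± 0.09 (0.0306) and Ehhadh by 0.34 ± 0.09 (0.0359). Acaa1b and Ehhadh are enzymes of peroxisomal beta-oxidation, and reads of Acaa1b may be mixed with those of its paralog Acaa1a. Over all genes 2.06% passed in either direction and 1.11% as higher. The differences of 30 of 37 members were above 0 (49.4% of all genes), and at an unadjusted p under 0.05 there were 19 higher and 1 lower, Ppargc1a (10.3% and 10.2% of all genes). Angptl4 and Eci1 passed in each of the 20 fits with a library left out, Acaa1b in 14 and Ehhadh in 7. With the depth proxy as a covariate none of the 4 passed (limma adjusted p = 0.0967 for Angptl4, 0.163 for Eci1 and Acaa1b, 0.212 for Ehhadh), although the differences were 0.94, 0.33, 0.38 and 0.31. The number of members that passed was 16 without wild-type mouse 5 housed apart, when 10% of all genes passed. It was 2 without any of Xiap-/- mouse 3 or wild-type mouse 1 or 2 housed apart, co-housed Xiap-/- mouse 1 or 5, or co-housed wild-type mouse 3, the 6 libraries without which Acaa1b did not pass. Over the fits with a library left out, 36 to 956 of the 9521 tested genes passed (196 in the reported fit). Beside these values, 8 of 9 enteroendocrine markers (median 0.15, 1 passing), 7 of 7 tuft cell markers (median 0.11, 1 passing) and Ttr (0.26, passing) were higher in Xiap-/- mice. Of the absorptive enterocyte markers 14 of 20 were above 0 (median 0.04), with 1 passing as lower, and the part of these cells in the differences was not tested.

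**Figure D2:**
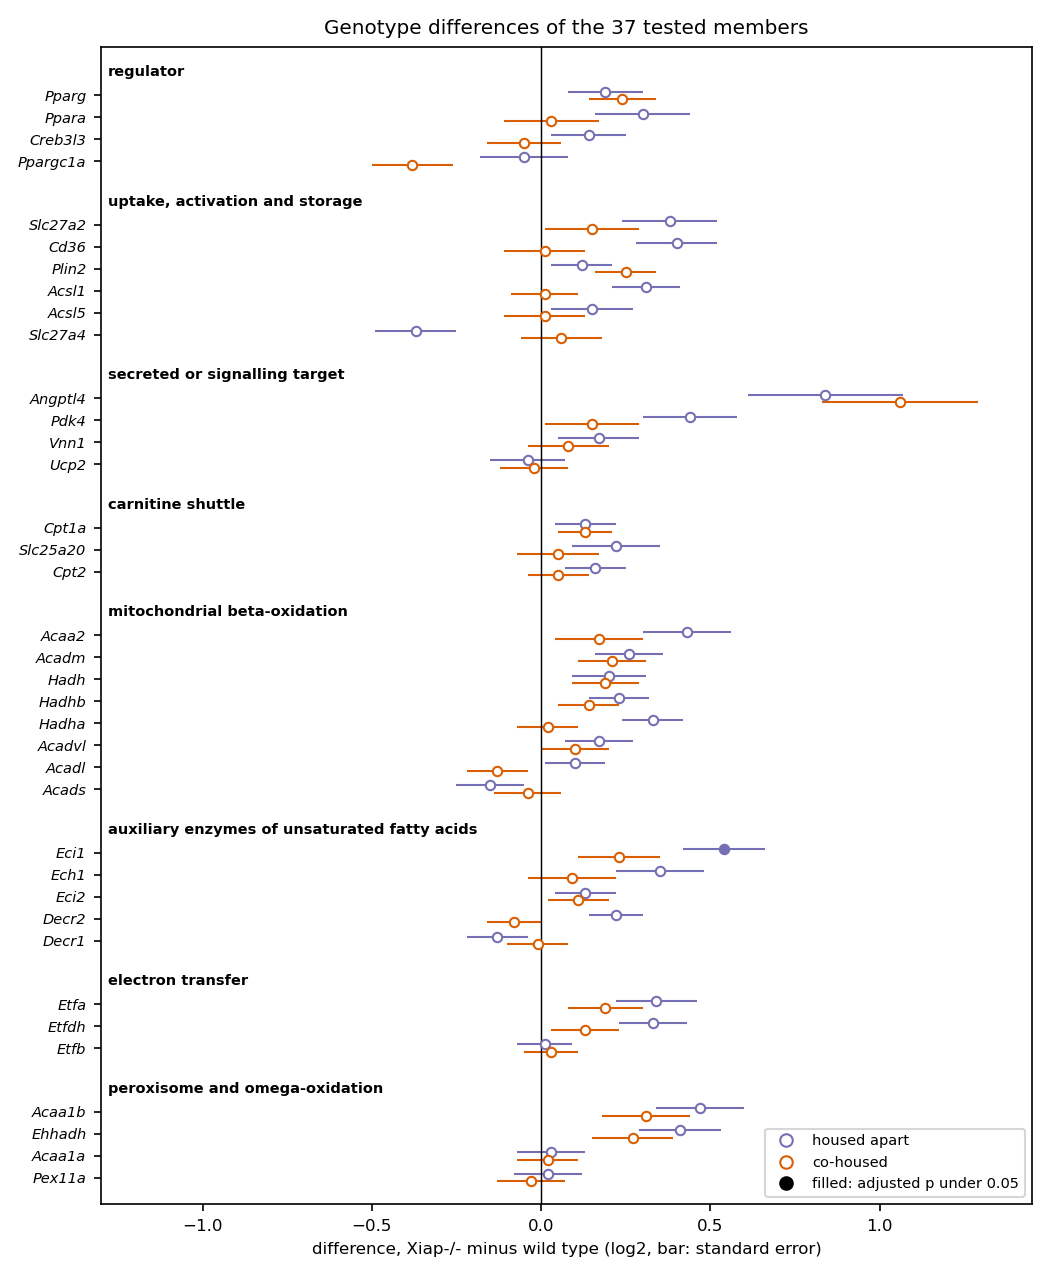
Genotype difference (Xiap-/- minus wild type, log2, bar for the standard error) of the 37 tested genes, grouped by role, with mice housed apart and co-housed mice as separate points, filled for an adjusted p under 0.05. Eci1 housed apart is the sole filled point, 32 of the 37 differences housed apart lie right of 0, and Angptl4 lies farthest right in both housings.

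In Xiap-/- mice, co-housing went with less transcript of Cd36, a transporter that takes up long-chain fatty acids. Its level differed by -0.62 ± 0.13 (SE, co-housed minus housed apart), or 0.65-fold on this scale, and all 5 co-housed values lay below all 4 values of mice housed apart (limma adjusted p = 0.0283). It was the sole member that passed, against 0.147% of all genes in either direction, 0.0945% as lower and 0.0525% as higher. The differences of 35 of 37 members were below 0 (49.8% of all genes), with a median of -0.21, and 12 were lower and 0 higher at an unadjusted p under 0.05 (5.85% and 5.41% of all genes). Of the 37 tested members, Cd36, Creb3l3, Acsl5, Acadl, Hadha and Decr2 had groups without overlap. All had the co-housed mice lower, against 2.98% of all tested genes (2.65% as higher). Acot1 and Cyp4a10, below the minimum mean and outside these shares, also had the co-housed mice lower without overlap. The share without overlap over all 23020 genes was not computed. Cd36 passed in 14 of 20 fits with a library left out, and not without Xiap-/- mouse 2 or 3 housed apart or co-housed Xiap-/- mouse 1, 2, 3 or 4, with adjusted p-values up to 0.209. With the depth proxy as a covariate its difference was -0.53 (limma adjusted p = 0.415), and over all alternatives its adjusted p ranged from 0.000844 to 0.415. Without Xiap-/- mouse 1 housed apart 2 members passed. Over the fits with a library left out, 2 to 64 of the 9521 tested genes passed (14 in the reported fit). This comparison and that of the genotypes housed apart share the 4 Xiap-/- mice housed apart. Beside these values, 18 of the 20 absorptive enterocyte markers had differences below 0, with a median of -0.19 and none passing. Enteroendocrine markers were below 0 for 8 of 9 genes (median -0.18, 3 lower at an unadjusted p under 0.05, none passing), tuft cell markers for 6 of 7 (median -0.08, 1 passing), and Ttr differed by -0.29 without overlap. The part of cell make-up in the differences was not tested.

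Wild-type mice gave no member that passed between the housings, and 0% of all genes did. At an unadjusted p under 0.05 these were 4 members, all lower in co-housed mice (Slc27a4, Acaa1a, Decr1 and Cd36), against 4.87% of all genes, and 0 higher, against 5.3%. The differences of 32 of 37 members were below 0 (51.9% of all genes), with a median of -0.09. No member had groups without overlap (0.221% of all genes did as lower and 0.305% as higher). Of the absorptive enterocyte markers 17 of 20 lay below 0, with a median of -0.24.

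Averaged over genotype, Cd36 fell by 0.43 ± 0.09 (SE) in co-housed mice, against mice housed apart (limma adjusted p = 0.0208), as the sole member that passed, while 0.179% of all genes passed, 0.105% as lower and 0.0735% as higher. At an unadjusted p under 0.05, 13 members were lower and 0 higher (7.96% and 6.44% of all genes). The differences of 36 of 37 members were below 0 (50.5% of all genes), with a median of -0.14. Cpt1a, at 0.01 ± 0.06, was the exception. For Cd36 the call was lost without Xiap-/- mouse 3 housed apart, co-housed Xiap-/- mouse 2 or 4 or co-housed wild-type mouse 2 (limma adjusted p up to 0.106). It was also lost with the depth proxy as a covariate (-0.39, adjusted p = 0.101) and without the highest depth proxy in each group housed apart (-0.38, adjusted p = 0.0666). The number of members that passed was 2 without Xiap-/- mouse 1 or wild-type mouse 2 housed apart and 3 without wild-type mouse 4 housed apart. Over the fits with a library left out, 6 to 226 of the 9521 tested genes passed (17 in the reported fit). For the absorptive enterocyte markers, 19 of 20 differences were below 0, with a median of -0.18 and 11 lower at an unadjusted p under 0.05, beside a median of -0.14 for the members. Enteroendocrine markers were below 0 for 8 of 9 genes (median -0.17, 4 at an unadjusted p under 0.05), and the part of cell make-up was not tested.

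**Figure D3:**
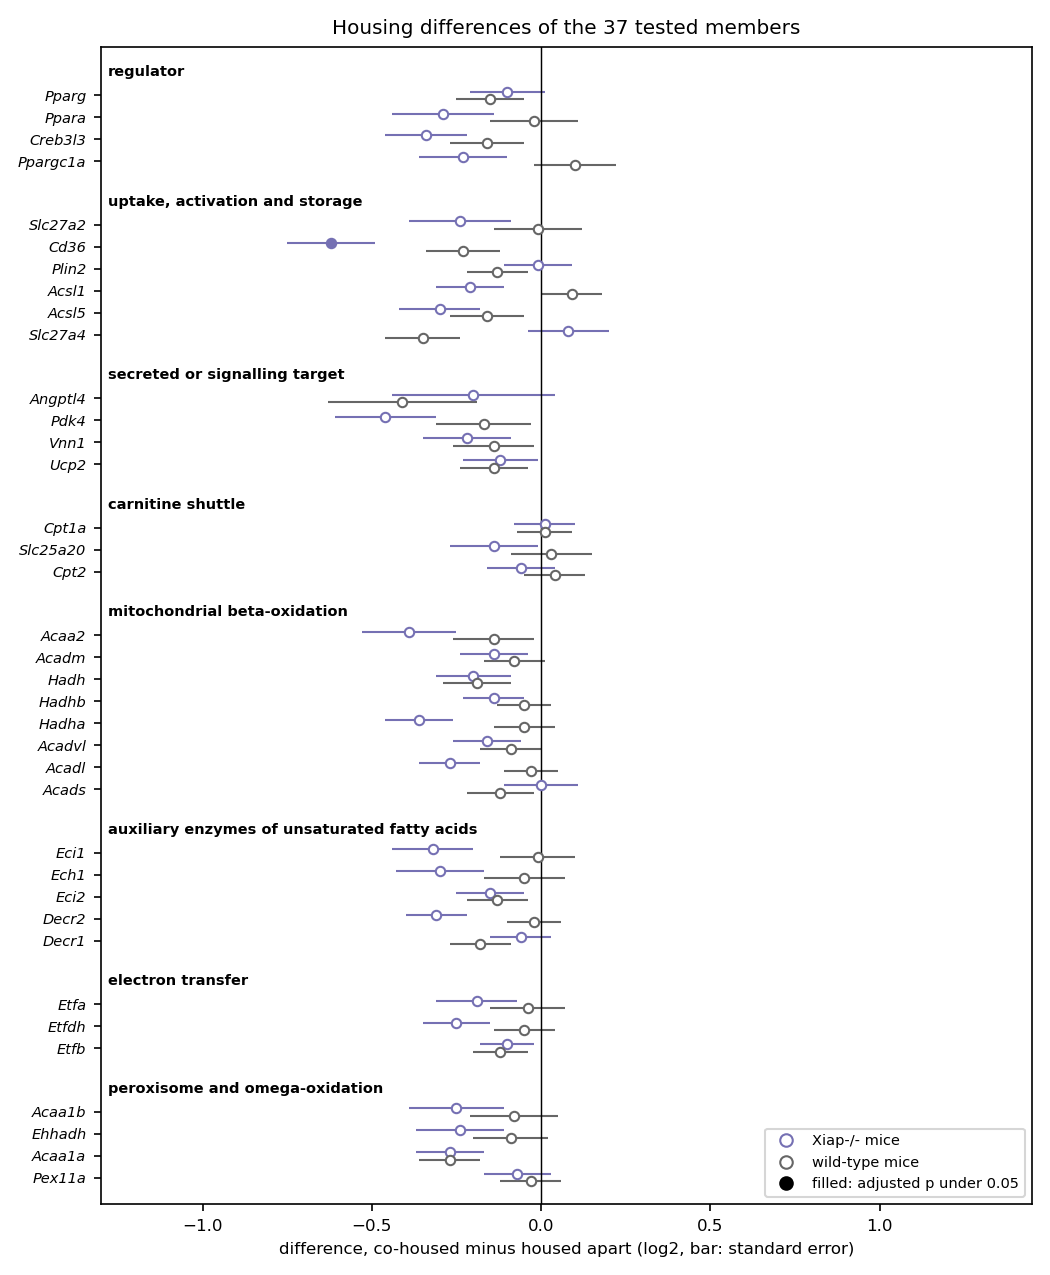
Housing difference (co-housed minus housed apart, log2, bar for the standard error) of the 37 tested genes, grouped by role, in Xiap-/- and in wild-type mice, with filled points for an adjusted p under 0.05. Cd36 in Xiap-/- mice, at -0.62, is the sole filled point, and 35 of the 37 differences of Xiap-/- mice lie left of 0.

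Whether the genotype difference itself changed with housing was tested by the interaction of both. No member passed in limma, and 0.0105% of all genes did. The interaction was below 0, which is a smaller or more negative genotype difference in co-housed mice, for 28 of 37 members (50.9% of all genes), with a median of -0.14. At an unadjusted p under 0.05 these were 4 members below 0 (Cd36, Hadha, Decr2 and Acsl1) and 1 above 0 (Slc27a4), against 3.2% and 3.84% of all genes. So the pass of Eci1 housed apart and its miss in co-housed mice are not shown to differ (interaction -0.31 ± 0.17, limma adjusted p = 0.731).

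**Figure D4:**
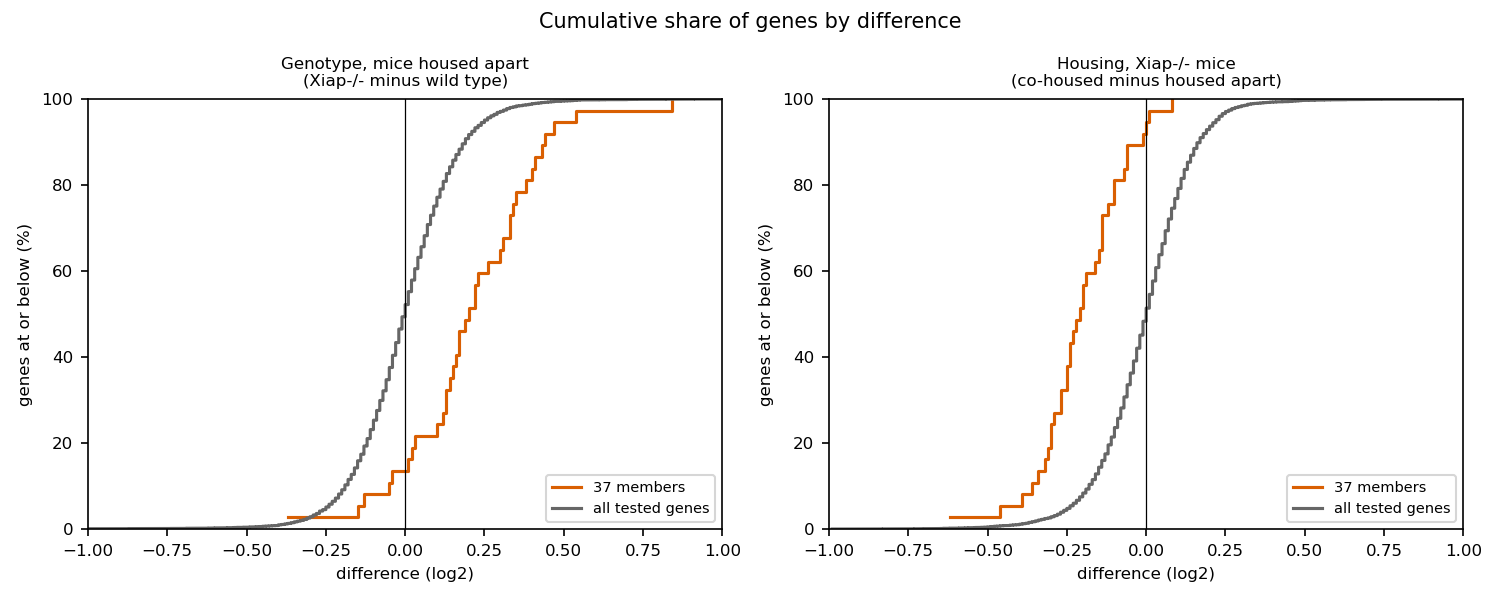
Cumulative share of genes (%) at or below each difference (log2) for the 37 tested members and for all 9521 tested genes, for genotype in mice housed apart (left) and for housing in Xiap-/- mice (right). The members lie right of all genes on the left, with a median of 0.20 against -0.003, and left of them on the right, with a median of -0.21 against 0.

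The 4 regulators did not pass in any comparison. Pparg, the PPAR best known from fat cells, had 3.60, 3.70, 3.78, 3.36 and 3.71 in co-housed Xiap-/- mice, against 3.38, 3.49, 3.33, 3.58 and 3.16 in co-housed wild-type mice. Among mice housed apart it had 3.77, 3.86, 3.58 and 3.71 in Xiap-/- mice, and 3.27 to 3.93 with a median of 3.51 in wild-type mice. The groups overlapped in both housings, with genotype differences of 0.24 ± 0.10 co-housed and 0.19 ± 0.11 housed apart. Ppargc1a, a coactivator that drives mitochondrial genes, stood at 6.78, 6.53, 6.97, 6.64 and 6.45 in co-housed Xiap-/- mice, against 7.02, 6.95, 7.20, 7.16 and 6.95 in co-housed wild-type mice. Its values were 6.71, 6.87, 7.04 and 7.01 in Xiap-/- mice housed apart, and 6.50 to 7.27 with a median of 7.02 in wild-type mice housed apart. It ran against most members, with 4 of 5 co-housed Xiap-/- values below every co-housed wild-type value and a difference of -0.38 ± 0.12 (limma adjusted p = 0.207, or 0.0263 with the co-housed groups fitted alone). Creb3l3, a liver and gut transcription factor that works with PPARα, had 9.07, 8.83, 9.10, 9.01 and 9.04 in co-housed Xiap-/- mice, and 9.11, 9.23, 9.74 and 9.32 in Xiap-/- mice housed apart. Wild-type mice had 9.0, 8.94, 9.11, 9.22 and 9.0 co-housed, and 8.92 to 9.56 with a median of 9.20 housed apart. The Xiap-/- groups narrowly did not overlap, and the housing difference there was -0.34 ± 0.12 (limma adjusted p = 0.267). Ppara, the receptor that fatty acids activate in liver and gut, averaged 5.21 ± 0.27 in co-housed Xiap-/-, 5.18 ± 0.15 in co-housed wild-type, 5.50 ± 0.21 in Xiap-/- mice housed apart and 5.19 ± 0.32 in wild-type mice housed apart (SD).

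Uptake, activation and storage genes include Cd36, the transporter that passed between the housings (chromosome 5, 17781690 to 17888801, minus strand, GENCODE M21). It had 5.94, 5.71, 5.84, 5.69 and 6.02 in co-housed Xiap-/- mice, against 6.38, 6.53, 6.67 and 6.28 in Xiap-/- mice housed apart. For wild-type mice the values were 5.78, 5.70, 5.75, 5.97 and 5.96 when co-housed, against 5.63 to 6.45 with a median of 6.13 when housed apart. Co-housed mice of both genotypes thus covered about the same range, and the 2 highest values were from Xiap-/- mice housed apart. The interaction for Cd36 was -0.39 ± 0.17 (limma adjusted p = 0.661). Slc27a4, a fatty acid transporter with acyl-CoA synthetase activity, had the opposite sign in mice housed apart. It had 10.11, 9.93, 10.32 and 9.95 in Xiap-/- mice, against 10.11 to 10.77 with a median of 10.42 in wild-type mice. In co-housed mice it had 10.27, 9.98, 10.30, 10.12 and 10.15 in Xiap-/- mice, against 10.26, 10.16, 10.11, 10.04 and 9.93 in wild-type mice. Wild-type mice housed apart reached the highest values, with a genotype difference of -0.37 ± 0.12 (limma adjusted p = 0.127), and it was the single lower member among the 15 that passed without wild-type mouse 5 there. Plin2, a coat protein of lipid droplets, had 6.53, 6.47, 6.46, 6.50 and 6.55 in co-housed Xiap-/- mice, against 6.33, 6.05, 6.14, 6.27 and 6.49 in co-housed wild-type mice. Housed apart it had 6.46, 6.56, 6.63 and 6.41 in Xiap-/- mice, against 6.14 to 6.55 with a median of 6.41 in wild-type mice. The co-housed Xiap-/- values lay in a narrow band near or above the top of the wild-type range (difference 0.25 ± 0.09, limma adjusted p = 0.266).

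Of the other genes of this role, Acsl1 and Acsl5 couple fatty acids to coenzyme A and Slc27a2 does so for very long chains. Their genotype differences housed apart were 0.31 ± 0.10, 0.15 ± 0.12 and 0.38 ± 0.14, and none passed. Acot1 and Acot2, thioesterases that release fatty acids from coenzyme A in the cytosol and in mitochondria, lay under the minimum mean. Acot1 had 3.51, 3.51, 3.47 and 3.53 in Xiap-/- mice housed apart, against 2.92 to 3.16 with a median of 3.04 in wild-type mice housed apart. The groups did not overlap. The depth proxy was 9.55 to 32.1% in these Xiap-/- mice and 4.58 to 14.9% in these wild-type mice, and the part of depth in the difference was not tested. Co-housed mice had 3.15, 3.01, 3.07, 3.21 and 3.45 when Xiap-/-, against 3.15, 3.17, 3.10, 3.14 and 3.18 when wild-type. Fitted with no minimum, over all 23020 genes, Acot1 passed housed apart (0.46 ± 0.08, limma adjusted p = 0.000784, where 0.209% of all genes passed) and on average over housing (0.25 ± 0.06, adjusted p = 0.0179, where 0.66% of all genes passed). Housed apart, that call held in each of 20 fits with a library left out, and with the depth proxy as a covariate the difference was 0.44 (adjusted p = 0.0996). Over the alternatives the adjusted p ran from 0.000293 to 0.0996. On average over housing it was lost in 3 of the 20, without Xiap-/- mouse 4 housed apart, co-housed Xiap-/- mouse 5 or co-housed wild-type mouse 3 (adjusted p up to 0.0644), and with the depth proxy as a covariate (0.23, adjusted p = 0.168). How the transformation treats differences at such low levels was not tested, and the share of all 23020 genes whose groups do not overlap was not computed. Acot2 averaged 3.43 ± 0.14 in Xiap-/- and 3.21 ± 0.12 in wild-type mice housed apart (SD), a difference of 0.23 ± 0.08 in the same fit (limma adjusted p = 0.288).

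Secreted and signalling targets showed the largest genotype difference of the 37. Angptl4 (chromosome 17, 33773750 to 33781830, minus strand) had 7.11, 6.71, 6.74, 6.84 and 7.37 in co-housed Xiap-/- mice, against 6.22, 5.90, 5.53, 5.98 and 5.86 in co-housed wild-type mice. Housed apart it had 6.57, 6.86, 7.76 and 7.42 in Xiap-/- mice, against 5.83 to 6.93 with a median of 6.30 in wild-type mice. The co-housed genotypes did not overlap, while housed apart the lower 2 Xiap-/- mice lay within the wild-type range. The genotype differences, 1.06 ± 0.23 co-housed and 0.84 ± 0.23 housed apart, differed by 0.21 ± 0.33 (interaction, limma adjusted p = 0.931), an error wide enough for a difference of either sign. Pdk4, a kinase that turns off pyruvate dehydrogenase and so spares glucose, had 3.75, 3.76, 3.91, 3.77 and 3.96 in co-housed Xiap-/- mice, against 3.78, 4.53, 4.35 and 4.53 in Xiap-/- mice housed apart. In wild-type mice it had 3.61, 3.68, 3.62, 3.83 and 3.67 co-housed, against 3.52 to 4.33 with a median of 3.69 housed apart. Of the mice housed apart, 3 of 4 Xiap-/- and 2 of 6 wild-type mice stood above every co-housed mouse. Its housing difference in Xiap-/- mice was -0.46 ± 0.15 (limma adjusted p = 0.238), and 1 library, Xiap-/- mouse 1 with 3.78, lay among the co-housed values. Vnn1, a pantetheinase, and Ucp2, a mitochondrial carrier, had genotype differences between -0.04 and 0.17 in both housings.

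The 3 genes of the carnitine shuttle had small differences, and none passed. Cpt1a, the gatekeeper of mitochondrial fatty acid entry, averaged 6.94 ± 0.10 in co-housed Xiap-/- and 6.81 ± 0.07 in co-housed wild-type mice, and 6.93 ± 0.11 in Xiap-/- and 6.80 ± 0.13 in wild-type mice housed apart (SD). Its genotype difference was 0.13 in both housings. Cpt2 and Slc25a20, which complete the shuttle, had differences of 0.05 to 0.22, and the housing differences of all 3 lay between -0.14 and 0.04.

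Mitochondrial beta-oxidation was represented by 8 enzymes, of which none passed and 7 of 8 were above 0 housed apart. Hadha, the alpha subunit of the trifunctional protein, had 8.36, 8.53, 8.75 and 8.60 in Xiap-/- mice housed apart, against 8.09 to 8.44 with a median of 8.16 in wild-type mice housed apart. Co-housed mice had 8.18, 8.09, 8.35, 8.16 and 8.22 when Xiap-/-, against 8.02, 8.13, 8.14, 8.27 and 8.34 when wild-type. Co-housed mice of both genotypes covered the same range as most wild-type mice housed apart, and the 3 highest values were from Xiap-/- mice housed apart. The genotype difference housed apart was 0.33 ± 0.09 (limma adjusted p = 0.0837), and the housing difference in Xiap-/- mice was -0.36 ± 0.10 (limma adjusted p = 0.119). Hadhb, the beta subunit, whose promoter window overlaps that of Hadha by 228 bases on the opposite strand, had a genotype difference of 0.23 ± 0.09 housed apart. Acaa2, the thiolase of the last step, differed by 0.43 ± 0.13 (limma adjusted p = 0.114), with 9.37 ± 0.25 in Xiap-/- and 8.94 ± 0.31 in wild-type mice (SD). Of the acyl-CoA dehydrogenases, which open each round, Acadm, Acadvl, Acadl and Acads had differences of 0.26, 0.17, 0.10 and -0.15 housed apart. Acadl lay without overlap between the Xiap-/- groups, from 6.87 to 7.05 co-housed and from 7.15 to 7.41 housed apart.

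Auxiliary enzymes of unsaturated fatty acids included Eci1 (chromosome 17, 24426641 to 24439348, plus strand), the member that passed housed apart. It had 7.31, 7.57, 7.72 and 7.47 in Xiap-/- mice housed apart, against 6.65 to 7.47 with a median of 6.93 in wild-type mice housed apart. Co-housed mice had 7.06, 7.05, 7.06, 7.48 and 7.35 when Xiap-/-, against 6.99, 6.84, 6.91, 6.94 and 7.18 when wild-type. Without wild-type mouse 5, at 7.47, the housed-apart genotypes would not overlap, the next wild-type value being 7.03. The isomerase Eci2 differed by 0.13 ± 0.09 housed apart and Ech1, which shifts paired double bonds, by 0.35 ± 0.13. Decr2, the peroxisomal dienoyl-CoA reductase, had 6.11, 6.09, 6.10, 5.94 and 6.20 in co-housed Xiap-/- mice, against 6.32, 6.40, 6.49 and 6.38 in Xiap-/- mice housed apart. In wild-type mice it had 6.24, 6.16, 6.08, 6.14 and 6.19 co-housed, against 5.93 to 6.39 with a median of 6.21 housed apart. The Xiap-/- groups did not overlap (difference -0.31 ± 0.09, limma adjusted p = 0.136). Decr1, its mitochondrial counterpart, had 8.27, 8.22, 8.19, 8.35 and 8.21 in co-housed wild-type mice, against 8.25 to 8.61 with a median of 8.40 in wild-type mice housed apart. Xiap-/- mice had 8.22, 8.09, 8.41, 8.24 and 8.20 co-housed, against 8.19, 8.27, 8.45 and 8.29 housed apart. Decr1 was lower in Xiap-/- than in wild-type mice housed apart on average (-0.13 ± 0.09), unlike the other 4 genes of this role.

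Electron transfer from beta-oxidation to the respiratory chain uses Etfa and Etfb, the subunits of a flavoprotein, and Etfdh, the enzyme that passes the electrons on. Etfdh had 6.52, 6.65, 6.80 and 6.61 in Xiap-/- mice housed apart, against 6.03 to 6.62 with a median of 6.30 in wild-type mice housed apart. Among co-housed mice it had 6.37, 6.49, 6.32, 6.26 and 6.53 in Xiap-/- mice, against 6.25, 6.18, 6.10, 6.47 and 6.33 in wild-type mice. All 4 Xiap-/- mice housed apart stood above every wild-type mouse there but mouse 5, at 6.62 (difference 0.33 ± 0.10, limma adjusted p = 0.101). The subunits of the flavoprotein were unlike each other, with genotype differences housed apart of 0.34 ± 0.12 for Etfa and 0.01 ± 0.08 for Etfb.

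Peroxisomal genes gave both other members that passed on average over housing. Ehhadh, a bifunctional enzyme of peroxisomal beta-oxidation (chromosome 16, 21761287 to 21787807, minus strand), had 6.76, 6.70, 6.77, 6.90 and 6.93 in co-housed Xiap-/- mice, against 6.78, 6.47, 6.38, 6.62 and 6.48 in co-housed wild-type mice. Housed apart it had 6.87, 6.92, 7.37 and 7.03 in Xiap-/- mice, against 6.35 to 7.06 with a median of 6.54 in wild-type mice. The groups overlapped in both housings. Acaa1b, a peroxisomal thiolase (chromosome 9, 119148023 to 119157093, minus strand), had 5.89, 5.74, 6.00, 5.89 and 6.12 in co-housed Xiap-/- mice, against 5.76, 5.79, 5.56, 5.57 and 5.44 in co-housed wild-type mice. Housed apart it had 6.19, 6.01, 6.51 and 5.98 in Xiap-/- mice, against 5.40 to 6.32 with a median of 5.62 in wild-type mice. Wild-type mouse 5 housed apart, with 6.32, stood above 3 of the 4 Xiap-/- mice there. Acaa1a, the paralog of Acaa1b, had 8.92, 8.83, 9.04, 8.81 and 8.92 in co-housed Xiap-/- mice, against 9.0, 9.22, 9.38 and 9.08 in Xiap-/- mice housed apart. Wild-type mice had 8.91, 8.95, 8.85, 8.86 and 8.83 co-housed, against 8.84 to 9.36 with a median of 9.18 housed apart. Acaa1a was even between the genotypes (0.03 ± 0.10 housed apart and 0.02 ± 0.09 co-housed), while co-housed mice averaged 0.27 ± 0.07 less (limma adjusted p = 0.0752). Of the 75-base windows (a length set here) in the last 500 bases of Acaa1a, 32.9% also occur anywhere in transcripts of Acaa1b. The other way it was 29.3%. Reads of this pair may thus be assigned to either gene, and their split is uncertain.

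Pex11a, a factor of peroxisome division, had differences of -0.07 to 0.02 in the 4 comparisons between groups. Cyp4a10, an omega-hydroxylase of fatty acids and a marker of PPARα activity in mouse liver, lay below the minimum mean. It had 2.01, 2.03, 2.02 and 2.03 in Xiap-/- mice housed apart, against 1.62 to 1.82 with a median of 1.69 in wild-type mice housed apart. Co-housed mice had 1.71, 1.80, 1.70, 1.67 and 1.77 when Xiap-/-, against 1.68, 1.74, 1.65, 2.24 and 1.85 when wild-type. The genotypes did not overlap housed apart, with wild-type mouse 5 lowest at 1.62, and a co-housed wild-type mouse had the highest value of all, 2.24. The share of all 23020 genes whose groups do not overlap was not computed. How the transformation treats differences and spreads at such low levels was not tested. Fitted with no minimum, Cyp4a10 passed housed apart (0.33 ± 0.07, limma adjusted p = 0.0188, where 0.209% of all genes passed, 0.139% as higher). That call was lost in 6 of 20 fits with a library left out, without any of the 4 Xiap-/- mice or wild-type mouse 1 or 2 housed apart (adjusted p up to 0.116), and the difference was 0.32 with the depth proxy as a covariate (adjusted p = 0.496).

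**Figure D5:**
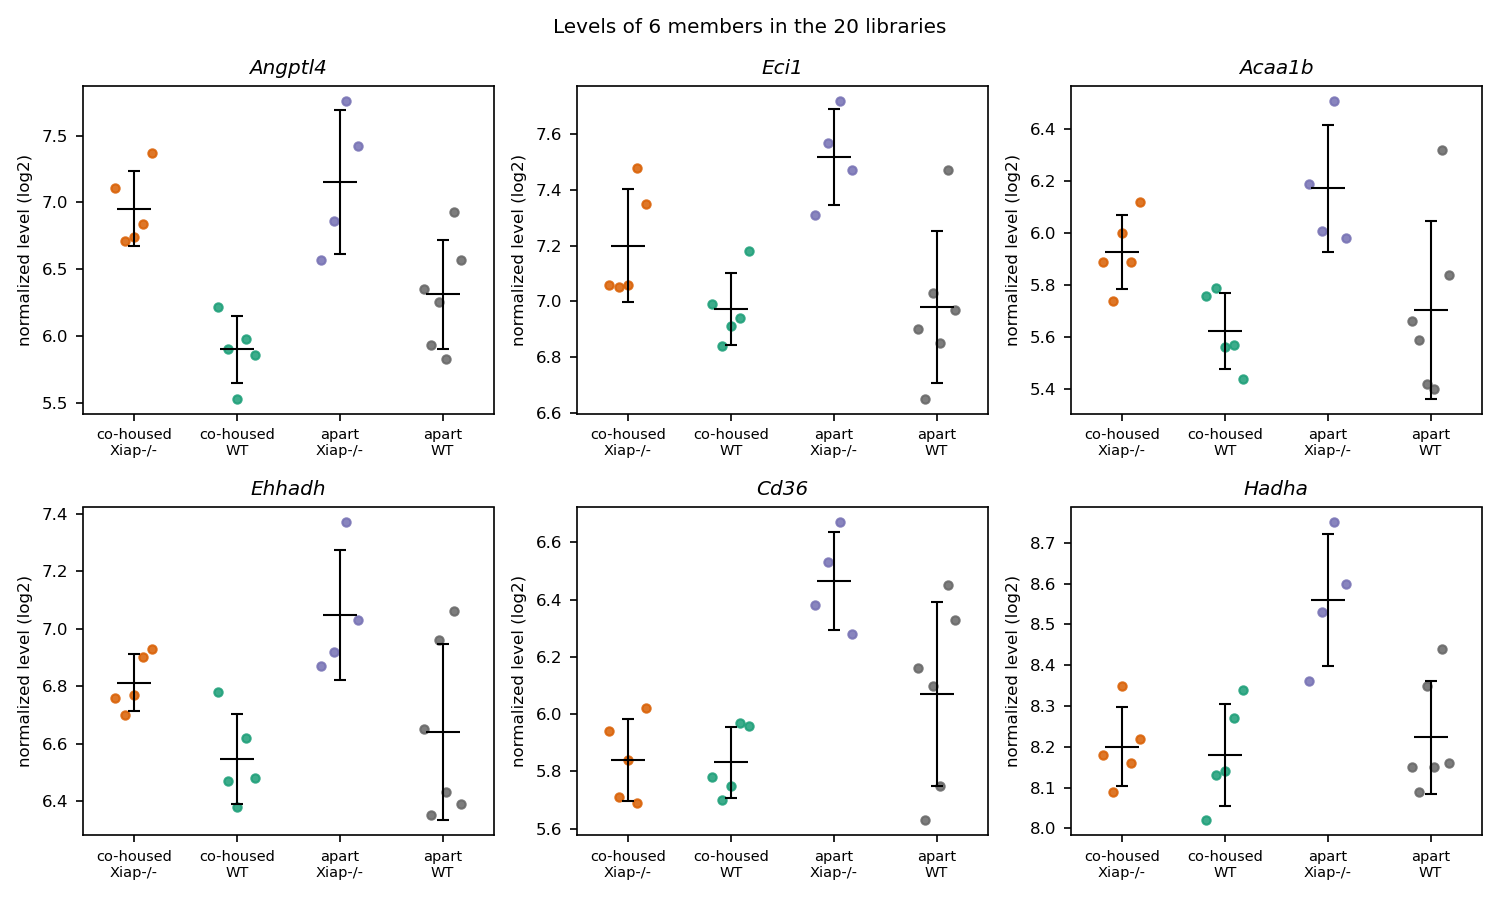
Levels (log2) of Angptl4, Eci1, Acaa1b, Ehhadh, Cd36 and Hadha in the 20 libraries, with a point per mouse and bars for the mean and SD of the 4 groups. Angptl4 is higher in all 5 co-housed Xiap-/- mice than in all 5 co-housed wild-type mice, and Cd36 is lower in all 5 co-housed than in all 4 housed-apart Xiap-/- mice.

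Other genes of fat oxidation, PPAR targets and partners of these regulators were listed by name, 154 in all, of which 114 could be tested. None passed for genotype in either housing alone. On average over housing, Xiap-/- crypts had more Aldh3a2, a fatty aldehyde dehydrogenase (0.34 ± 0.08, SE, limma adjusted p = 0.0243), and more Hsd17b4, a peroxisomal enzyme of beta-oxidation (0.36 ± 0.09, adjusted p = 0.0297). They had less Ppard, the PPAR that is widespread in crypts (-0.34 ± 0.09, adjusted p = 0.0436). These 3 calls are 2.63% of the 114 genes, near the 2.06% of all tested genes that passed. Ppard averaged 6.55 ± 0.15 in co-housed Xiap-/-, 6.81 ± 0.19 in co-housed wild-type, 6.33 ± 0.23 in Xiap-/- mice housed apart and 6.76 ± 0.32 in wild-type mice housed apart (SD). Averaged over genotype, the thioesterase Acot4 fell by 0.30 ± 0.06 in co-housed mice, against mice housed apart (limma adjusted p = 0.0238), and no other listed gene passed for housing. With a library left out, Aldh3a2 passed in 17 of 20 fits (lost without Xiap-/- mouse 4 housed apart or co-housed Xiap-/- mouse 1 or 5), Acot4 in 15 (lost without Xiap-/- mouse 3 or 4 housed apart, co-housed Xiap-/- mouse 2 or 4 or co-housed wild-type mouse 2), Hsd17b4 in 13 and Ppard in 6. None of the 4 passed with the depth proxy as a covariate (limma adjusted p = 0.163 for Aldh3a2, 0.0831 for Acot4, 0.219 for Hsd17b4 and 0.299 for Ppard), with differences of 0.32, -0.30, 0.29 and -0.23. Among the fat oxidation genes of this list, 40 of 53 were above 0 for genotype housed apart (49.1% of all tested genes), with a median of 0.07. For housing in Xiap-/- mice 43 of 53 were below 0 (49.8% of all tested genes), with a median of -0.11. Directions of the 26 other PPAR targets tested are not reported here. Of the 35 regulators and partners, 14 were above 0 for genotype housed apart and 26 for housing in Xiap-/- mice. The fatty acid binding protein Fabp1 averaged 13.17 ± 0.20 in Xiap-/- and 12.85 ± 0.40 in wild-type mice housed apart (SD). Co-housed Xiap-/- mice had 12.71 ± 0.19 and co-housed wild-type mice 12.86 ± 0.14, and the gene did not pass. Rxra, a partner of the PPARs, differed by -0.10 ± 0.09 housed apart and did not pass.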

How the data were processed

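Small intestinal crypts of 20 mice were profiled by 3' RNA sequencing with unique molecular identifiers. The authors deposited a table of log2-scale normalized values for 23020 genes, and the submitters' processing notes name the build GRCm38.p6 and DESeq2 1.18.1. The kind of transformation is not given in the sources used here, rare genes lie on a plateau, and without counts the depth per sample and its counting error are unknown. Groups came from the sample titles. The values were fitted as they stand with limma 3.58.1 (R 4.3.3), in a single model of 4 group means over 20 libraries, with a trended and robust variance and Benjamini-Hochberg adjustment over the 9521 genes with a mean of at least 3.32 (log2 of 10). The threshold was an adjusted p of 0.05, two-sided, and errors are standard errors unless given as SD. The fitting steps were tested on simulated data with independent normal noise. That simulation holds no depth differences and no correlated genes, so it does not check the results against these. Its outcome is not reported here. The 7 comparisons share samples, so their results are not independent. Each mouse is a replicate, cages are not named, and a cage cannot be told apart from its housing. Mice housed apart lived with their own genotype, so among them a cage cannot be told apart from genotype either. Whether mice of a cage are independent replicates is not known. The 40 members and all gene lists were chosen with earlier results of these data known. The text names all members that passed, the 4 members with the smallest p in each comparison, the other pathway genes that passed (at most 4 per comparison) and Fabp1, Ppard and Rxra. Some pathway genes are not reported here. The remaining members are given by counts and ranges or with shorter values. Alternatives were no minimum mean, another minimum, library weights, only the groups compared, the depth proxy as a covariate, a replicate block and each library left out. Proteins were not compared here.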

Additional observations from a re-analysis of the deposited data

Results flagged for a closer look

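A single library lay far from the others of its group for 4 genes, by the gap to its nearest neighbour relative to the range of the group (Dixon's criterion at 95%). Ppara had 5.19 in Xiap-/- mouse 1 housed apart, where the other 3 had 5.57 to 5.63. Acadl had 6.91 in co-housed wild-type mouse 2, where the other 4 had 7.12 to 7.18. Pex11a had 6.25 in that same mouse, where the other 4 had 6.54 to 6.63. Etfb had 9.34 in wild-type mouse 3 housed apart, where the other 5 had 9.13 to 9.20. Chance gives such a gap in about 1 in 20 groups, and these are 4 of 148.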

How the results depend on the processing

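The median difference of the members kept its sign and moved by less than 1 SD between replicates under every alternative run, in all 7 comparisons, and 0.15 to 0.27 was its range for genotype housed apart. That SD is the pooled spread of the libraries' median deviations from their group means. It is larger than the medians for genotype co-housed (0.08) and housing in wild-type mice (-0.09) in size. For these comparisons a move to 0 would also have been less than 1 SD. With each library left out, it spanned 0.15 to 0.26 for genotype housed apart, 0.04 to 0.14 for genotype co-housed, -0.24 to -0.16 for housing in Xiap-/- mice, -0.12 to -0.04 for housing in wild-type mice, -0.20 to -0.05 for the interaction, 0.14 to 0.19 for genotype on average and -0.16 to -0.11 for housing on average. The number of members that passed was less steady, and the cause was not tested. With each library left out it spanned 0 to 15 for genotype housed apart, 0 to 2 for housing in Xiap-/- mice, 2 to 16 for genotype on average and 0 to 3 for housing on average, and was 0 to 0 for genotype co-housed, housing in wild-type mice and the interaction. In the same order and the same fits, the number over all 9521 tested genes spanned 9 to 697, 2 to 64, 36 to 956 and 6 to 226. It spanned 1 to 12 for genotype co-housed, 0 to 66 for housing in wild-type mice and 1 to 1 for the interaction. The share of all tested genes that passed in the same fit moved too and stands in brackets. For genotype housed apart 1 member passed (0.452%), against 3 with no minimum mean (0.209%), 9 with library weights (4.04%), 0 with only the groups compared (0.126%), 0 with the depth proxy as a covariate (0.0315%) and 11 (4.29%) without the highest depth proxy in each group housed apart, which was chosen after seeing the data. For genotype co-housed the number was 0 (0.0315%), against 1 with weights (1.67%) and 2 with only the groups compared (1.49%). For housing in Xiap-/- mice it was 1 (0.147%), against 4 with weights (2.35%), 3 with only the groups compared (1.78%) and 0 with the covariate (0.0105%). For genotype on average it was 4 (2.06%), against 15 with weights (8.31%), 0 with the covariate (0.063%) and 14 without the highest depth proxies (8.7%). For housing on average it was 1 (0.179%), against 2 with weights (1.42%), 0 with the covariate (0.042%) and 0 without the highest depth proxies (0.084%). Fitting only the groups compared does not apply to the interaction and the averages. With the replicate number as a block, 10 members passed for genotype housed apart (3.68%), 6 for housing in Xiap-/- mice (1.99%), 12 for genotype on average (6.11%) and 2 for housing on average (1.03%). Over 27 same-numbered pairs the correlation of deviations ran from -0.42 to 0.36 with a median of 0.01, and 10 exceeded 0.1, against 31 of 122 other pairs. Between the genotypes housed apart the 4 same-numbered pairs had 0.07, 0.09, 0.24 and 0.25, all positive but not all above 0.1. In all, 6 of 20 libraries were closest to their own number, and the count that chance would give was not computed. The numbers are taken not to pair mice, a choice on which the counts of members depend, as the block fit shows. The labels do not say what they mark. Over all tested genes the number that passed ranged from 3 to 697 for genotype housed apart (43 as reported), from 1 to 224 for housing in Xiap-/- mice (14) and from 6 to 956 for genotype on average (196). Depth is unknown, so no limit of detection can be given for low genes such as Acot1 and Cyp4a10.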
